A study of Mus musculus with 11 samples.

Results

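Organoid lines grown from tumors of mixed epithelial and mesenchymal histology (mes) were compared with organoid lines grown from glandular epithelial tumors (epi). The libraries were chosen by their labels alone: T1-mes and T3-mes against T2-epi and T4-epi, 4 of the 27 libraries of the series, and all genes were tested in both directions. The whole series profiled mouse oviduct and ovary surface epithelium tissue, organoids of both, engineered clones, and tumors and tumor organoids derived from the clones, to model high-grade serous ovarian cancer. All 4 lines descend from oviductal organoids of mice that express Cas9 and EGFP from the Rosa26 locus. They share sgRNA-induced mutations, since TBP clones were made with guide RNAs against Trp53, Brca1 and another gene. In the study no clone had both Brca1 alleles out of frame. The clones were selected with Nutlin-3a, an inhibitor of the binding of MDM2 to p53 that stops cells with intact p53, and were transplanted into immunodeficient NSG mice. The organoids were then derived from the solid tumors and kept in Nutlin-3a to favour tumor cells over cells of the host. The study describes the mes cultures as cystic organoids mixed with fibroblast-like cells and the epi cultures as uniformly epithelial, and by staining it describes the cells of both as GFP-positive. It shows T1-mes and T2-epi as tumors of opposite flanks that had received the same clone. It describes all 4 lines as resulting from an original oviduct-TBP clone, and the mouse behind T3-mes and T4-epi was not given in the sources used here. Each line is a single culture of a single tumor and each has 1 library, so that the spread between 2 lines of a kind holds the differences between tumors, cultures and libraries together.

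Epithelial cells are held together by E-cadherin, tight junctions and desmosomes and carry keratin filaments. In epithelial to mesenchymal transition (EMT), transcription factors of the ZEB, SNAIL and TWIST families repress junction genes through E-boxes in their promoters, and cells gain vimentin, fibrillar collagens and fibronectin. Carcinosarcoma and other mixed ovarian tumors hold cells of both kinds.

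RNA was measured by CEL-Seq2, a bulk method that reads the 3′ end of transcripts. The 4 lines had total counts of 1995230 to 2051891, and 3 counts, taken as the limit that a count of 0 allows, amount to 1.36 to 1.48 normalised read counts (CPM, scaled to library size) in them. The mitochondrial rRNA and tRNA genes of the table took 4.70% of counts in T1-mes and 8.72% to 10.03% in the other lines. The 3 TBP clones, used as a reference for engineered organoids that had not been in a mouse, had 82239, 2052696 and 4531767 counts. In the shallow TBP clone 1, a count of 0 allows 35.98 CPM, so that levels are given from TBP clones 2 and 3. Paired values below stand in the order of the line numbers, T1-mes before T3-mes and T2-epi before T4-epi, and ± after a log2 fold change is its standard error. Trp53 had 18 and 19 counts in the mes lines and 12 and 9 counts in the epi lines. Its log2 fold change was 0.79 ± 0.57, with an adjusted p of 0.593 in edgeR's quasi-likelihood test, and small sgRNA-induced changes need not lower a 3′ count.

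The lines of a kind differed from each other by more than counting error, with a chi-square per gene of 36.6 between T1-mes and T3-mes and 12.6 between T2-epi and T4-epi. Across the genes tested, Pearson's r of log2(CPM + 1) was 0.926 between the epi lines and 0.835 between the mes lines. T1-mes was about as close to T2-epi (r = 0.834) as to T3-mes, while T3-mes was the line farthest from the epi lines (r = 0.674 and 0.685). These r are across genes, which are not independent replicates. More genes differed by over 4 times between the mes lines than between the epi lines: 239 genes were that much higher in T3-mes and 713 in T1-mes, against 281 higher in T4-epi and 131 in T2-epi.

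Of 18305 genes, 9775 passed the filter on low counts. A gene was called where its adjusted p in edgeR's quasi-likelihood test was below 0.05 and the absolute log2 fold change was above 2. By this rule 98 genes were higher (1.0% of genes tested) and 12 lower (0.123%) in the mes organoids. The median log2 fold change of all genes tested was 0.02. The called genes higher in mes ran from a log2 fold change of 2.50 for Slc48a1, a heme transporter gene, to 10.93 for Rcn3, which encodes a calcium-binding protein of the endoplasmic reticulum. At an unadjusted p under 0.05 there were 883 genes higher and 495 lower, and groups did not overlap, with mes above epi, for 24.2% of genes tested and, with mes below, for 23.6%. All 98 and 12 genes were also called by DESeq2, which called 362 and 96 in all. With T1-mes paired to T2-epi and T3-mes to T4-epi in a blocked edgeR fit, 212 genes were called higher and 28 lower, all 98 and 12 among them. In an edgeR fit of all 27 libraries 90 of the 98 and 6 of the 12 remained called. The calls needed both epi lines. Without T2-epi or without T4-epi no gene was called (lowest adjusted p of edgeR 0.257 and 0.182), with 522 and 633 genes higher and 292 and 164 lower at an unadjusted p under 0.05. Without T1-mes 610 genes were called higher and 636 lower, and without T3-mes 219 higher and 39 lower, and each of these fits assumes that the lone library varies like the lines of the other kind.

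**Figure D1:**
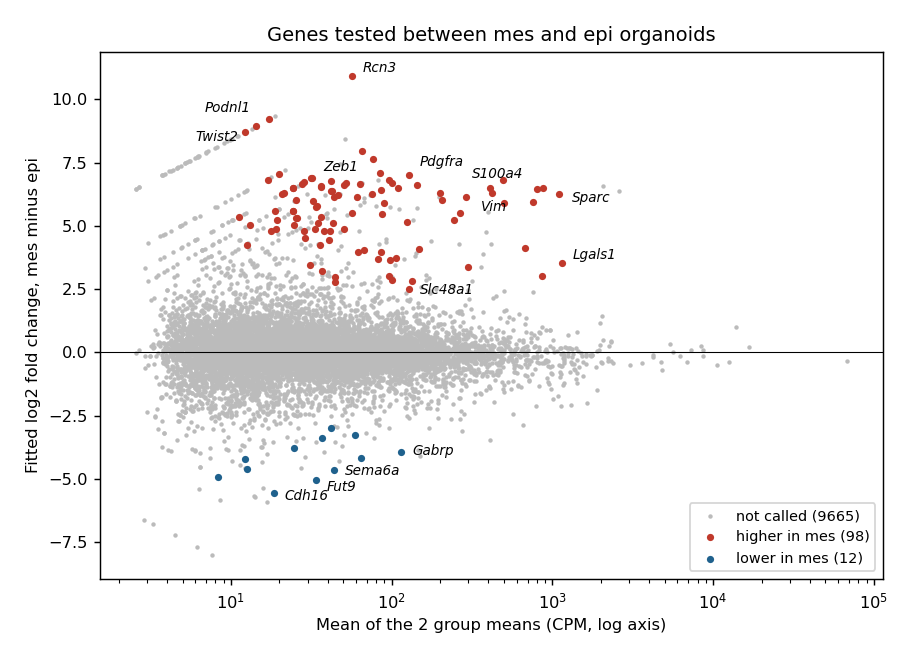
Each point is 1 of the 9775 genes tested, with the mean of the group means in CPM (log axis) and the fitted log2 fold change of mes minus epi organoids. The 98 genes called higher in mes (red) start at 2.50 and the 12 genes called lower (blue) end at -3.01, and rows of grey points at low levels and high fold changes are genes with few or no counts in the epi lines.

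Of the fibrillar collagens, which form the fibres of connective tissue, and the proteins that fold and process them, 5 of 22 tested members were called higher in the mes lines and none lower. Over all genes tested, 1.0% were called higher and 0.123% lower, which are the shares to set beside the counts of this and the later lists. Both mes lines were above both epi lines for 18 of the 22, against 24.2% of all genes tested. The median log2 fold change was 5.22, or 3.41 with the 3 members that were at 0 in both epi lines set at their lower bound. Col1a1, a chain of type I collagen at chr11:94936224-94953042 in GRCm38, had 637 and 1323 CPM in the mes lines against 4.26 and 13.8 CPM in the epi lines, a log2 fold change of 6.79 ± 0.78, with an adjusted p of 0.0267 in edgeR's test. Col3a1, the type III chain, had 957 and 2014 CPM in the mes lines against 14.2 and 35.95 CPM in the epi lines (log2 fold change 5.92 ± 0.71, with an adjusted p of 0.0276 in edgeR's test). T3-mes was higher than T1-mes for both chains, and the mes and epi lines did not overlap. Col5a1, a type V chain that joins the same fibres, had 130.4 and 302 CPM in the mes lines against 3.31 and 1.48 CPM in the epi lines. Serpinh1, the collagen chaperone HSP47, had 178 and 307 CPM in the mes lines against 10.4 and 3.45 CPM in the epi lines. Rcn3 had 69.3 and 158 CPM in the mes lines and no count in the epi lines, which makes it at least 78.5-fold higher. The other chain of type I collagen, Col1a2, went the same way but was not called: it had 597 and 2663 CPM in the mes lines against 4.73 and 33.5 CPM in the epi lines, and its log2 fold change of 6.46 had an adjusted p of 0.0818 in edgeR's test, with a difference of over 4 times within each pair of lines. DESeq2 gave Col1a2 an adjusted p of 1.13e-10.

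Of the 10 tested members of the list of other collagens, 4 were called higher and none lower, with a median log2 fold change of 5.92. The chains Col6a1, Col6a2 and Col6a3 of type VI collagen, which forms beaded filaments in the matrix around cells, were among them. Col6a1 had 659 and 1318 CPM in the mes lines against 7.10 and 26.6 CPM in the epi lines (log2 fold change 5.91 ± 0.80, with an adjusted p of 0.0373 in edgeR's test). Col6a2 had 684 and 922 CPM in the mes lines against 5.68 and 12.3 CPM in the epi lines. Col6a3 had 71.6 and 232 CPM in the mes lines against 0.473 and 0.985 CPM in the epi lines, a ratio of 208-fold (95% counting interval 70.3 to 1003) that rests on 1 and 2 counts in the epi lines. By the group means these 3 chains were each over 40 times higher, as were the type I and III chains. Col23a1, a collagen with a transmembrane segment, had more in T1-mes (65.7 CPM) than in T3-mes (30.8 CPM) and at most 2 counts in an epi line.

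Matrix glycoproteins and proteoglycans gave, with the fibroblast markers, the most calls of the 31 lists, 9 of 23 tested members, none of them lower. The median log2 fold change was 6.03, or 5.57 with the member at 0 in the epi lines set at its bound. The members summed to 6624 and 26184 CPM in the mes lines against 1273 and 1308 CPM in the epi lines. Emilin2, an elastic fibre glycoprotein, was even between the mes lines, at 101 and 106 CPM in the mes lines against 1.42 and 0.492 CPM in the epi lines. Fbln1, the fibulin-1 gene, had 43.5 and 51.9 CPM in the mes lines against 0.946 and 0.985 CPM in the epi lines, and Matn2, which encodes the adaptor protein matrilin-2, had 69.8 and 99.5 CPM in the mes lines against 0.473 and 1.48 CPM in the epi lines. These low epi values are 1 to 3 counts each, so that their ratios have wide intervals, as for Fbln1, which was 49.4-fold (95% counting interval 18.96 to 183) higher. Of the small leucine-rich proteoglycans that bind collagen, Prelp had 36.7 and 63.5 CPM in the mes lines against 0.473 and 0.985 CPM in the epi lines, and Lum, the lumican gene, had 144 and 56.7 CPM in the mes lines against 0.473 and 1.48 CPM in the epi lines. Lum was higher in T1-mes, where the other members named here were higher in T3-mes. Sparc, a collagen-binding glycoprotein, had 1022 and 3316 CPM in the mes lines against 16.6 and 42.4 CPM in the epi lines, and Bgn, the biglycan gene, had 126 and 444 CPM in the mes lines against 1.89 and 3.94 CPM in the epi lines. They were the called genes with the largest ratios of T3-mes to T1-mes. Fn1, the fibronectin gene, was not called by edgeR, while DESeq2 gave it an adjusted p of 1.24e-10. It had 1256 and 6867 CPM in the mes lines against 11.8 and 76.8 CPM in the epi lines, and its log2 fold change was 6.56 ± 1.31, with an adjusted p of 0.0899 in edgeR's test.

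Matrix proteases and their inhibitors had a median near that of all genes. Of 20 tested members, 3 were called higher and none lower, and the median log2 fold change was -0.12. Mmp2, a gelatinase, had 237 and 145 CPM in the mes lines against 2.37 and 0.985 CPM in the epi lines, a log2 fold change of 6.79 ± 0.59, with an adjusted p of 0.0236 in edgeR's test. The tissue inhibitors of metalloproteinases Timp2 and Timp3 were the other 2 called members. Timp2 had 1086 and 1963 CPM in the mes lines against 183 and 203 CPM in the epi lines (log2 fold change 3.01), and Timp3 had 33.1 and 17.8 CPM in the mes lines against 0.946 and 0.492 CPM in the epi lines.

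**Figure D2:**
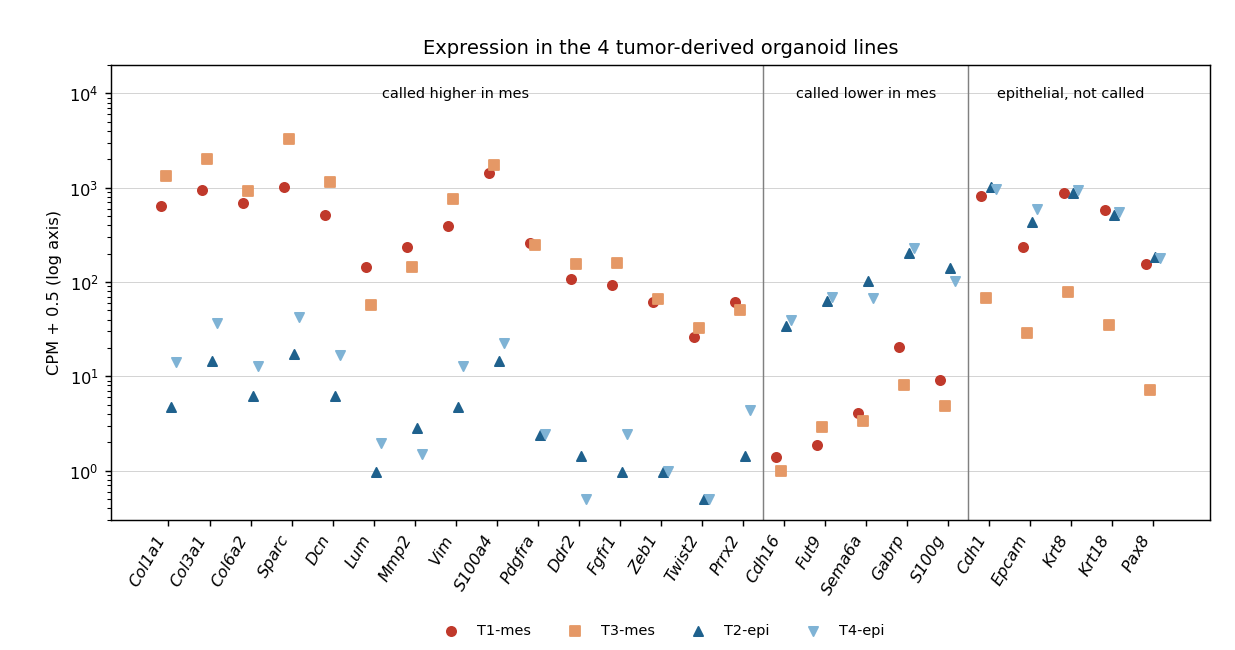
Each point is the level of a gene in a line, as CPM plus 0.5 on a log axis, with T1-mes as circles, T3-mes as squares, T2-epi as upward and T4-epi as downward triangles. In the 15 genes at the left both mes lines lie far above both epi lines, in the middle 5 both lie far below, and in the 5 epithelial genes at the right T1-mes lies with the epi lines or closer to them while T3-mes lies apart.

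Of the list of EMT effectors and the mesenchymal cytoskeleton, 7 of 18 tested members were called higher and none lower (median log2 fold change 3.17). Vim, the vimentin gene at chr2:13573927-13582826, had 395 and 753 CPM in the mes lines against 4.26 and 12.3 CPM in the epi lines, a log2 fold change of 6.14 ± 0.70, with an adjusted p of 0.0267 in edgeR's test. S100a4, a calcium-binding protein of motile cells, had 1428 and 1732 CPM in the mes lines against 14.2 and 22.2 CPM in the epi lines (log2 fold change 6.47 ± 0.47, with an adjusted p of 0.0236 in edgeR's test). Lgals1, the galectin-1 gene, had 2418 and 1809.6 CPM in the mes lines against 152 and 219.6 CPM in the epi lines. The Lgals1 groups did not overlap, and its log2 fold change was 3.53. Dab2, an endocytic adaptor, had 35.3 and 31.7 CPM in the mes lines against 0 and 0.492 CPM in the epi lines.

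Among the 25 EMT transcription factors, 14 passed the filter and 3 were called, all higher: Zeb1, Twist2 and Prrx2. The median log2 fold change of the 14 was 2.58. Zeb1, a zinc finger repressor of E-cadherin, had 61.6 and 65.4 CPM in the mes lines against 0.473 and 0.492 CPM in the epi lines, that is 1 count in each epi line. Its log2 fold change was 6.90 ± 0.57, with an adjusted p of 0.0236 in edgeR's test, and the mes lines differed from each other by less than 10%. Twist2 had 25.4 and 32.2 CPM in the mes lines and no count in the epi lines or in the 3 TBP clones, and was at least 19.9-fold higher than in the epi lines. Prrx2, a homeobox factor of mesenchyme, had 60.2 and 50.5 CPM in the mes lines against 0.946 and 3.94 CPM in the epi lines.

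The other tested members were not called by edgeR. DESeq2 called 8 members of the list higher and none lower. Its adjusted p was 1.34e-05 for Zeb2, 1.26e-04 for Snai1, 7.57e-07 for Prrx1 and 0.0956 for Twist1. For Zeb2, Snai1, Snai2, Twist1, Tcf4 and Runx2, T3-mes was the higher mes line. Zeb2 had 36.2 and 168 CPM in the mes lines against 0.473 and 0 CPM in the epi lines, with an adjusted p of 0.0509 in edgeR's test, just above the threshold. Snai1 had 16.3 and 37.5 CPM in the mes lines and no count in the epi lines (adjusted p = 0.0582 in edgeR's test). Snai2 was almost a gene of T3-mes alone, with 98 counts there, 5 in T1-mes and none in the epi lines, and did not pass the filter. Prrx1 had more in T1-mes, with 109 CPM in T1-mes and 37.5 CPM in T3-mes against 1.42 and 0 CPM in the epi lines. Twist1 was present in the epi lines, at 38.5 and 164 CPM in the mes lines against 20.8 and 26.6 CPM in the epi lines, and its log2 fold change was 2.13 ± 0.72, with an adjusted p of 0.272 in edgeR's test. Tcf4 (125 and 394 CPM in mes, 40.2 and 48.8 CPM in epi) and Runx2 (58.4 and 221 against 18.4 and 29.1 CPM) were present in the epi lines too. Sox9, a factor of epithelial progenitors as well as of cartilage, had 645 and 442 against 216 and 491 CPM, and Foxc1 had 91.5 and 352 against 141 and 404 CPM, with overlapping groups. Runx1 had 41.7 and 35.6 against 43.04 and 34.97 CPM, and Msx2 had 7.70 and 0.962 against 0 and 21.7 CPM. The remaining 10 members, Foxc2, Tcf21, Meox1, Meox2, Six2, Msx1, Tbx18, Osr1, Osr2 and Hand2, had at most 13 counts in any of the 4 lines.

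Receptor tyrosine kinases and growth factors had 6 of 32 tested members called higher and none lower, with a median log2 fold change of 0.47. Among the ligands, Fgf7, the keratinocyte growth factor that mesenchyme sends to epithelium, had 66.6 and 106 CPM in the mes lines against 0.946 and 1.48 CPM in the epi lines. Among the receptors, Pdgfra, the PDGF receptor alpha of fibroblasts at chr5:75152292-75198215, was nearly equal between the mes lines. It had 256 and 249 CPM in the mes lines against 1.89 and 1.97 CPM in the epi lines, a log2 fold change of 7.01 ± 0.44, with an adjusted p of 0.0236 in edgeR's test. Fgfr1 had 92.9 and 158 CPM in the mes lines against 0.473 and 1.97 CPM in the epi lines. Ddr2, a receptor for fibrillar collagen, had 106 and 155 CPM in the mes lines against 0.946 and 0 CPM in the epi lines, that is 2 counts and no count in the epi lines, a ratio of 276-fold (95% counting interval 74.05 to 2225). For these 3 receptors each epi line had at most 4 counts. Axl, the receptor for GAS6, had 273 and 678 CPM in the mes lines against 8.99 and 17.2 CPM in the epi lines. Igfbp4, a secreted binding protein of insulin-like growth factors, had 1583 and 949.7 CPM in the mes lines against 67.2 and 81.3 CPM in the epi lines, and was higher in T1-mes than in T3-mes.

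In the TGF-beta and BMP pathway, which drives EMT in many epithelia, 1 of 29 tested members was called, where 1.0% of all genes tested were called higher. The called member was Tgfbr3, the coreceptor betaglycan, at 187 and 165 CPM in the mes lines against 3.78 and 1.97 CPM in the epi lines (log2 fold change 5.92 ± 0.49, with an adjusted p of 0.0236 in edgeR's test). Of the 29 members, 24 had a positive log2 fold change and the median was 0.66, where 5000 of the 9775 genes tested had a positive one. DESeq2, which called 362 genes higher and 96 lower in all, called 6 members of this list higher and 1 lower. At an unadjusted p under 0.05 edgeR put 9 members higher and 1 lower. In the Wnt pathway 1 of 19 tested members was called, Tcf7l1, a repressor of Wnt targets, at 41.7 and 86.6 CPM in the mes lines against 2.37 and 1.97 CPM in the epi lines. TBP clones 2 and 3 lay between these for Tcf7l1, at 16.1 and 18.5 CPM. The median of the Wnt list was -0.15, and DESeq2 called 5 of its members higher and none lower. In the glycosyltransferase list 1 of 30 members was called in each direction. St3gal5, which makes the ganglioside GM3, had 67.03 and 154 CPM in the mes lines against 3.78 and 0.985 CPM in the epi lines. In the list of motile cilium genes, 1 of 6 tested members was called, the alpha-tubulin gene Tuba1a, which is also expressed in cells without cilia, at 151 and 189 CPM in the mes lines against 21.8 and 21.2 CPM in the epi lines.

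**Figure D3:**
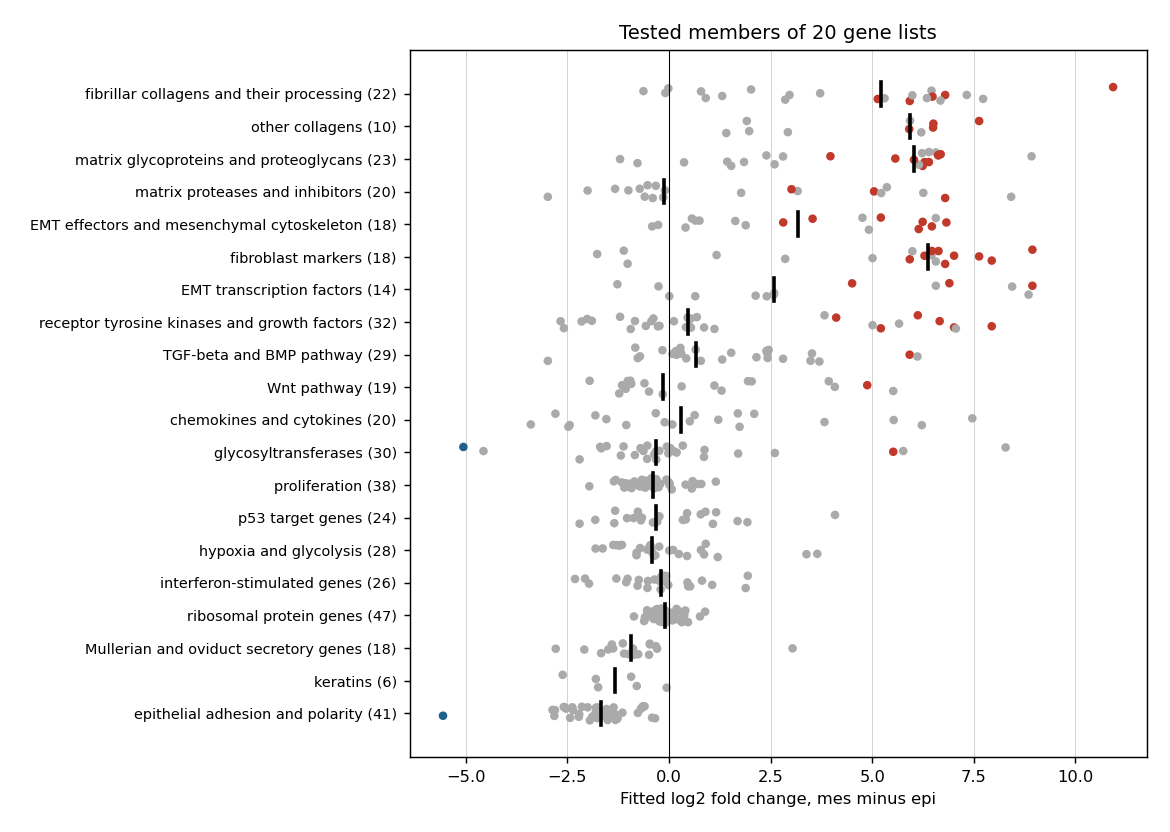
Each point is a tested member of a gene list, by its fitted log2 fold change of mes minus epi organoids, with members called higher in red, called lower in blue and not called in grey, the number tested in parentheses and the list's median as a black bar. The medians of the matrix glycoprotein, collagen and fibroblast lists lie at 5.22 to 6.37, those of the proliferation, interferon and ribosomal protein lists at -0.40 to -0.10, and that of the epithelial list at -1.68.

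The fibroblast marker list, which shares members with the matrix and receptor lists, had 9 of 18 tested members called higher and none lower (median log2 fold change 6.37, or 6.14 with the member at 0 in the epi lines at its bound). Its members summed to 6890.4 and 10806 CPM in the mes lines against 2445 and 2503 CPM in the epi lines. The 9 defining fibroblast markers summed to 3214 CPM in T1-mes and 7636 CPM in T3-mes against 32.2 CPM in T2-epi and 103 CPM in T4-epi. Thy1, a surface marker of many fibroblasts, was not detected apart from 1 count in T1-mes, while it had up to 833 counts in another library of the series. Pdgfrb, the receptor of pericytes and fibroblasts, was low, with 12 and 28 counts in the mes lines and 0 and 1 in the epi lines. In 3 of the 18 tested members, C3, Ly6a and Ly6c1, both mes lines lay below both epi lines, as they did for 23.6% of all genes tested. None of these 3 was called. C3, a complement component, had 859 and 354 CPM in the mes lines against 1234 and 1252 CPM in the epi lines. Ly6a, the Sca-1 gene, had 763 and 134 CPM in the mes lines against 957 and 999 CPM in the epi lines, and Ly6c1, a further member of the Ly6 family, had 31.7 and 2.89 CPM in the mes lines against 78.99 and 39.9 CPM in the epi lines.

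Of other cells that a tumor in a host mouse could bring along, the defining markers of smooth muscle, endothelium, leukocytes, muscle and fat were mostly at or near 0, and those of leukocytes summed to 4.81 to 34.97 CPM, nearly all from Cd68 and Csf1r. Of the 8 smooth muscle and pericyte markers, 6 had no count in any of the 4 lines: Actg2, Myh11, Cnn1, Des, Rgs5 and Cspg4. Acta2, the smooth muscle actin also made by activated fibroblasts, had 11 and 8 counts in the mes lines and 1 and 0 in the epi lines, where oviduct tissue held up to 4612 counts. Tagln, a further marker of contractile cells, had no count in the mes lines and 6 in T4-epi. Of the 6 endothelial markers, Pecam1, Tek, Tie1 and Emcn had no count, Cdh5 had 1 in T4-epi and Kdr had 6 in T3-mes. In the full list of 16 endothelial genes, Flt1 (19.02 and 15.4 CPM in the mes lines, 0 and 0.985 CPM in the epi lines) and Plvap (16.8 and 15.4 against 0.473 and 0.985 CPM) were the 2 that passed the filter, and neither was called (adjusted p = 0.0812 and 0.0565 in edgeR's test), though DESeq2 called both higher. In TBP clones 2 and 3, which had not been in a mouse, Plvap had 1.11 and 11.9 CPM and Flt1 had 0 and 1.60 CPM. Of the 6 leukocyte markers, Tyrobp, Lyz2 and C1qa had no count and Ptprc, the common leukocyte antigen CD45, had 3 counts in T1-mes and none elsewhere. The leukocyte list as a whole had 3 tested members, Cd14, Cd68 and Csf1r, none called, with T3-mes the lowest of the 4 lines for each: Cd14 had 107 and 23.1 CPM in the mes lines against 245 and 296 CPM in the epi lines and 396 and 71.3 CPM in TBP clones 2 and 3. In these clones Cd68 had 17.2 and 12.99 CPM and Csf1r had 22.7 and 7.52 CPM. No count fell on the 4 markers of muscle and fat. The 4 mesothelial markers, by contrast, summed to 458 and 75.5 CPM in the mes lines and to 368 and 273 CPM in the epi lines, mostly from Msln. Wt1, a transcription factor of mesothelium and ovary surface epithelium, had 68 and 0 counts in the mes lines and 31 and 10 in the epi lines, so that it was present in T1-mes and not detected in T3-mes. The part of host fibroblasts in the mes libraries was not tested in the counts, and the GFP staining of the cultures lies outside them. The eGFP entry of the table, the transgene all these cells carry, had 0 counts in both mes lines, 0 in T2-epi and 3 in T4-epi, and also 0 in the clones, and so is no check.

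Genes of epithelial adhesion and polarity stood lower in the mes organoids, to a different degree in each line, and with 1 exception did not pass edgeR's test. Of 41 tested members, 1 was called lower and none higher. At an unadjusted p under 0.05 edgeR put 14 lower and none higher, and DESeq2 called 4 members of the list lower and none higher. All 41 had a negative log2 fold change, 35 had both mes lines below both epi lines (23.6% of all genes tested did), and the median was -1.68. The members summed to 2698 and 443 CPM in the mes lines against 4496 and 5024 CPM in the epi lines. In T3-mes the median member stood at 6.38% of the mean of the epi lines, with 37 of 41 members under 25%. In T1-mes it stood at 52.1%, with 4 of 41 members under 25%, and all 41 members were lower in T3-mes than in T1-mes. A lower level in bulk RNA can mean fewer epithelial cells or less RNA of the gene per cell, which cannot be told apart here. Cdh1, the E-cadherin gene, had 822 and 67.3 CPM in the mes lines against 1014 and 965 CPM in the epi lines. Epcam, an epithelial adhesion molecule, had 237 and 28.4 CPM in the mes lines against 432 and 600.3 CPM in the epi lines. The log2 fold changes were -1.15 ± 0.99, with an adjusted p of 0.667 for Cdh1 and -1.95 ± 0.90, with an adjusted p of 0.401 for Epcam in edgeR's test, so that neither passed the threshold with these 2 mes lines.

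The promoters of these genes are shown because E-boxes with the letters CAGGTG, read as CACCTG on the other strand, are the sites that ZEB and SNAIL factors are known to bind. RefSeq promoters of the build GRCm38.p6 were at hand for 24 of the 41 tested members, and 14 of the 24 (58.3%) hold the motif on either strand within 250 bases before the transcription start. Cdh1 and the called member Cdh16 were not among the 24, so that their promoters were not examined. The motif is present in 17.8% of the genes tested that have a promoter (1318 of 7390) and in 19.4% of all genes with a promoter, where a gene counts if any of its starts does. Among the genes called higher it is present in 10 of 70 and among those called lower in 2 of 7. The motif is its own reverse complement in neither form, so that no match was counted on both strands. The 4 members with 3 or more matches were Crb3, a polarity protein of the apical membrane, Lsr, a protein of tricellular junctions, Spint2, an inhibitor of membrane serine proteases, and Ap1m2, an adaptor of basolateral sorting. Their 250 bases before the start are given 5′ to 3′ on the gene's own strand, with the matches in capitals. The Crb3 promoter with the most matches is at chr17:57061951-57062200 (+ strand), that of Lsr at chr7:30973470-30973719 (- strand), that of Spint2 at chr7:29281978-29282227 (- strand) and that of Ap1m2 at chr9:21312334-21312583 (- strand).
Crb3: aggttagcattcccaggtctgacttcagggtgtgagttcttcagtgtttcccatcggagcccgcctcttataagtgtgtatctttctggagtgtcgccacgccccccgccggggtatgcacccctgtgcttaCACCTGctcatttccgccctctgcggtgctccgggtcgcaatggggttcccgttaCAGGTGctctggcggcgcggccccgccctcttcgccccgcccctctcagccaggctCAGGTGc
Lsr: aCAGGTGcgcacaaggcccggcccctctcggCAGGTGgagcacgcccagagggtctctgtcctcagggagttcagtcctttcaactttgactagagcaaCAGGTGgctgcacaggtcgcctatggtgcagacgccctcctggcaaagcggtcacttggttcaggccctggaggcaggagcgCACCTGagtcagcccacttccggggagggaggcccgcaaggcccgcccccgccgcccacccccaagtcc
Spint2: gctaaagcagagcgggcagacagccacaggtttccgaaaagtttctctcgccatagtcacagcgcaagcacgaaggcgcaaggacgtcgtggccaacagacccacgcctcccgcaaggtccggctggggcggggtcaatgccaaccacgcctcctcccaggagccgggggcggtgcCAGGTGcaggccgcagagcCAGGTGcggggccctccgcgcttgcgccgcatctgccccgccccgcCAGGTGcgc
Ap1m2: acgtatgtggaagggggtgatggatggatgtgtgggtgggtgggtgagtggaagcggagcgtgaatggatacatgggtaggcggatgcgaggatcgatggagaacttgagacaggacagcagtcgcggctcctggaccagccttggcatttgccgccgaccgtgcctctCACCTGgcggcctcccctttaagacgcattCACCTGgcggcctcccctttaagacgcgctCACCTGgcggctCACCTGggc

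All 4 genes followed the list, with T3-mes far below the other lines. Crb3 had 10.4 and 0.962 CPM in the mes lines against 31.2 and 36.4 CPM in the epi lines. Lsr had 133 and 13.9 CPM in the mes lines against 214 and 223 CPM in the epi lines, and Spint2 had 96.02 and 13.5 CPM in the mes lines against 128 and 257 CPM in the epi lines. Ap1m2 had 28.5 and 1.92 CPM in the mes lines against 19.4 and 30.04 CPM in the epi lines, so that T1-mes was within the range of the epi lines for it. None of the 4 was called (adjusted p from 0.288 to 0.823 in edgeR's test), and a match of letters does not show that a factor was bound.

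**Figure D4:**
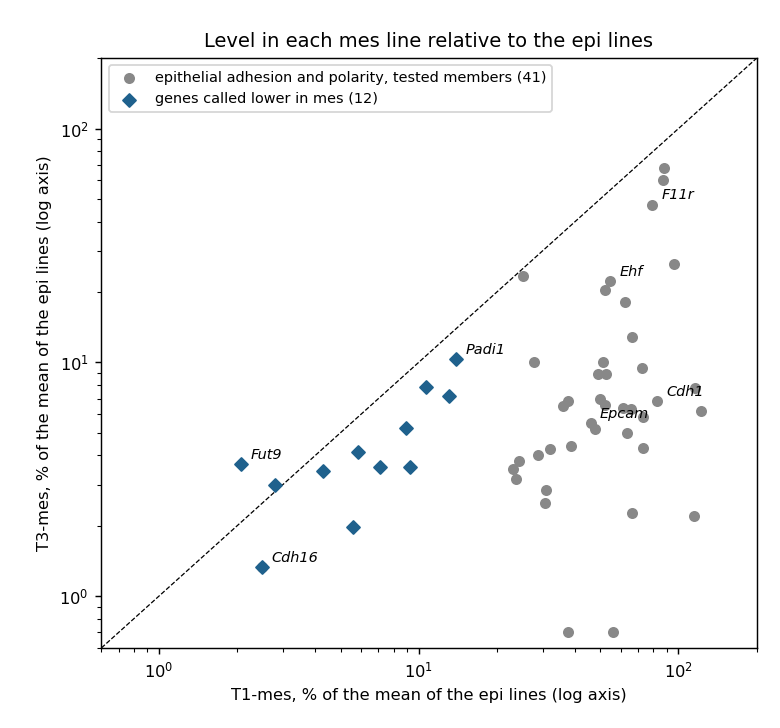
Each point is a gene, with its level in T1-mes on the x axis and in T3-mes on the y axis, both as a percentage of the mean of the epi lines on log axes. Grey circles are the 41 tested genes of epithelial adhesion and polarity, blue diamonds the 12 genes called lower, Cdh16 being in both sets. The dashed line marks equal levels, and 2 circles at 0% in T3-mes are drawn at 0.7%. The epithelial genes all lie below the dashed line, with a median of 52.1% in T1-mes and 6.38% in T3-mes, whereas the called genes lie nearer to it, at up to 13.9% in T1-mes and 10.3% in T3-mes. A call asks for a small spread between the lines of a kind, so that this nearness is in part what the rule selected.

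T3-mes was the lowest of the 4 lines for all 6 tested keratins. Of 14 keratins 6 passed the filter, none was called by edgeR (2 were lower at an unadjusted p under 0.05), and the median log2 fold change was -1.34. Krt8 and Krt18, the pair of simple epithelia, had 871 and 77.9 CPM in the mes lines against 869 and 954 CPM in the epi lines and 581 and 34.1 CPM in the mes lines against 516 and 557 CPM in the epi lines. T1-mes was thus within or just above the range of the epi lines and T3-mes more than 10 times lower. Krt7 had 881 and 113 CPM in the mes lines against 1540.1 and 1813 CPM in the epi lines, and Krt19 had 193 and 42.8 CPM in the mes lines against 323 and 507 CPM in the epi lines. Krt20 had 224 and 8.18 CPM in the mes lines against 46.4 and 198 CPM in the epi lines, and Krt6a had 3.62 and 0.962 CPM in the mes lines against 21.3 and 7.88 CPM in the epi lines. Krt15, a keratin of basal progenitor cells, was high in T1-mes alone, with 1173 counts there against 3 in T3-mes and 8 and 3 in the epi lines, and did not pass the filter, which asks for counts in 2 libraries. Krt23 had 62 and 7 counts in the mes lines and none in the epi lines, and was called higher by DESeq2, which tests without this filter. The other 6 keratins, Krt5, Krt13, Krt14, Krt16, Krt17 and Krt80, had at most 8 counts in any line.

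Of the Mullerian and oviduct secretory genes, none of 18 tested members was called by edgeR (1 higher and 3 lower at an unadjusted p under 0.05), DESeq2 called 1 higher and 1 lower, and the median log2 fold change was -0.94. Pax8, the lineage factor of oviductal secretory cells, had 156 and 6.73 CPM in the mes lines against 183 and 178 CPM in the epi lines. Wfdc2, which encodes the ovarian cancer marker HE4, had 867 and 127 CPM in the mes lines against 1918 and 2329.9 CPM in the epi lines. Both genes were lowest in T3-mes, and for Pax8 T1-mes was within 20% of the epi lines. Cd24a had 1584 and 379 CPM in the mes lines against 2685 and 2896 CPM in the epi lines, and Clu, the clusterin gene, had 2146 and 125 CPM in the mes lines against 1296 and 1876 CPM in the epi lines. Msln, the mesothelin gene and a marker of mesothelium, had 427 and 75.5 CPM in the mes lines against 352 and 268 CPM in the epi lines.

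The 12 genes called lower differed from the epithelial lists in that they were low in both mes lines. They stood at 2.08% to 13.9% of the mean of the epi lines in T1-mes and at 1.33% to 10.3% in T3-mes, with a median of 6.45% and 3.63%. A call asks for a small spread within a pair, so that like levels in the mes lines are in part what the rule selected. Cdh16, a cadherin of tubular epithelia such as kidney, lies at chr8:104601911-104624396 and had 0.906 and 0.481 CPM in the mes lines against 33.6 and 38.9 CPM in the epi lines, that is 2 and 1 counts in the mes lines. Its log2 fold change was -5.56 ± 0.60, with an adjusted p of 0.0236 in edgeR's test. Fut9, a fucosyltransferase that makes the Lewis X antigen, had 1.36 and 2.40 CPM in the mes lines against 61.96 and 68.9 CPM in the epi lines (log2 fold change -5.06 ± 0.52, with an adjusted p of 0.0236 in edgeR's test). Penk, the proenkephalin gene, had 0.453 and 0.481 CPM in the mes lines against 16.1 and 16.3 CPM in the epi lines. Sema6a, a transmembrane semaphorin, had 3.62 and 2.89 CPM in the mes lines against 103 and 66.5 CPM in the epi lines, and was low in TBP clones 2 and 3 too, at 5.54 and 0 CPM.

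Slc26a4, the anion exchanger pendrin, had 1.36 and 0.962 CPM in the mes lines against 25.1 and 21.7 CPM in the epi lines. Gabrp, the pi subunit of the GABA-A receptor found in the reproductive tract, had 19.9 and 7.69 CPM in the mes lines against 201 and 229 CPM in the epi lines. Both were lower by over 9 times in each mes line than in the lower epi line. S100g, the calcium-binding protein calbindin-D9k, had 8.61 and 4.33 CPM in the mes lines against 140.0 and 103 CPM in the epi lines. Car8, a carbonic anhydrase relative without the enzyme activity, had 1.36 and 0.481 CPM in the mes lines against 24.1 and 24.6 CPM in the epi lines. The others were Upk3bl, a relative of the uroplakins, Cbs, the cystathionine beta-synthase gene, Mageh1 of the MAGE family and Padi1, a peptidylarginine deiminase, with log2 fold changes of -3.77, -3.39, -3.27 and -3.01. Summed over the 12 genes, T1-mes had 73.4 CPM, T3-mes 42.8, T2-epi 866, T4-epi 899, and TBP clones 2 and 3 973 and 425. TBP clone 2 was thus within 15% of the epi lines and TBP clone 3 lower, where Car8 and Sema6a had no count and S100g (2.96 CPM) and Slc26a4 (0.684 CPM) were low.

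Genes with the mes lines below the epi lines that missed the call included Upk1a, a uroplakin, at 25.8 and 6.73 CPM in the mes lines against 357 and 213 CPM in the epi lines, and Cpm, a membrane carboxypeptidase, at 31.7 and 4.81 CPM in the mes lines against 283 and 262 CPM in the epi lines. Gpa33, an antigen of gut and glandular epithelium, had 103 and 31.3 CPM in the mes lines against 551 and 939 CPM in the epi lines, Aqp8, a water channel, had 15.4 and 10.6 CPM in the mes lines against 35.9 and 247 CPM in the epi lines, and Eva1a had 20.4 and 6.73 CPM in the mes lines against 116 and 135 CPM in the epi lines. Their adjusted p ran from 0.0681 to 0.175 in edgeR's test. On the other side, Nrn1, the neuritin gene, had 65.7 and 262 CPM in the mes lines against 0 and 2.95 CPM in the epi lines, and F13a1, which encodes the A subunit of coagulation factor XIII, had 7.25 and 251 CPM in the mes lines against 0 and 2.46 CPM in the epi lines (adjusted p = 0.0738 and 0.209 in edgeR's test).

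Of the 98 genes called higher, 39 were members of the lists and 59 were not. The 15 outside the lists with a mean of at least 20 CPM and the largest fold changes were at 5 or fewer counts in each epi line, apart from Gas1. Podnl1, a leucine-rich repeat protein of the matrix, had 30.3 and 38.95 CPM in the mes lines and no count in the epi lines or the clones, and was at least 23.9-fold higher. Acpp, the prostatic acid phosphatase gene, had 18.1 and 30.8 CPM and likewise no count in the epi lines or the clones (at least 16.9-fold higher). Prkcdbp, which encodes the caveolar protein cavin-3, had 123 and 212 CPM in the mes lines against 1.89 and 0.492 CPM in the epi lines. Sod3, the extracellular superoxide dismutase, was nearly equal between the mes lines, with 201 and 199 CPM in the mes lines against 2.37 and 1.48 CPM in the epi lines and a log2 fold change of 6.68 ± 0.47, with an adjusted p of 0.0236 in edgeR's test.

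Gas1, a GPI-anchored coreceptor of hedgehog, had 1017 and 2438 CPM in the mes lines against 11.4 and 28.1 CPM in the epi lines. Mgp, the matrix Gla protein that inhibits calcification, had 63.4 and 102 CPM in the mes lines against 0.473 and 1.48 CPM in the epi lines, and Mxra8, an adhesion protein, had 96.9 and 240.0 CPM in the mes lines against 1.42 and 2.46 CPM in the epi lines. Bmper, a secreted regulator of BMP signalling, had 62.1 and 82.7 CPM in the mes lines against 0.473 and 0.985 CPM in the epi lines. Dse, which epimerises the sugar chain of dermatan sulfate, had 35.8 and 61.1 CPM in the mes lines against 0.473 and 0.492 CPM in the epi lines. Flrt2, a ligand of Unc5 receptors, had 41.7 and 102 CPM in the mes lines against 0.473 and 0.985 CPM in the epi lines. The others were the cationic amino acid transporter Slc7a2 (48.01 and 31.3 CPM in the mes lines), Tceal8 (29.4 and 95.2 CPM), Zcchc24 (75.6 and 90.9 CPM), the myelin protein gene Pmp22 (47.6 and 64.9 CPM) and the calcium channel subunit Cacna2d1 (65.2 and 43.8 CPM), each at 0 to 3 counts in an epi line.

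The mes lines shared the genes called higher at like levels, as the rule for a call requires a small spread: 71 of the 98 were within a factor of 2 and none differed by over 4 times. T3-mes was the higher line for 70 genes and T1-mes for 28. Their sum was 21089 CPM in T1-mes and 31920 CPM in T3-mes, against 894 CPM in T2-epi and 1147 CPM in T4-epi. The largest ratios toward T3-mes were those of Bgn, Sparc, Col6a3, Tceal8, Axl, Mxra8, Flrt2, Arc, Gas1 and Rcn1. Arc, an immediate early gene, had 57.5 and 138 CPM in the mes lines against 2.37 and 4.43 CPM in the epi lines, and Rcn1 had 42.6 and 98.6 CPM in the mes lines against 1.89 and 1.48 CPM in the epi lines. Toward T1-mes they were those of Lum, Col23a1, Hlf, Timp3, Eml1, Igfbp4, Mmp2, Sprr2e, Olfm1 and Slc7a2. Hlf, a PAR bZIP transcription factor, had 67.9 and 32.2 CPM in the mes lines against 1.42 and 0.985 CPM in the epi lines, Eml1, a microtubule-binding protein, had 83.8 and 48.6 CPM in the mes lines against 1.42 and 0.985 CPM in the epi lines, Sprr2e, of a family of near-identical cornified envelope genes whose reads may be shared, had 81.98 and 50.5 CPM in the mes lines against 6.62 and 7.88 CPM in the epi lines, and Olfm1, a secreted glycoprotein, had 28.99 and 18.8 CPM in the mes lines against 0.946 and 1.48 CPM in the epi lines.

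In the epi lines the 98 genes were at a low share of their mes level. The median gene in T2-epi stood at 1.81% of T1-mes and in T4-epi at 1.61% of T3-mes. T1-mes and T2-epi were deposited under one record, as were T3-mes and T4-epi, and the shares with the partners crossed were 2.61% for T4-epi of T1-mes and 1.51% for T2-epi of T3-mes. Vim had 9 and 25 counts in the epi lines and 2, 0 and 0 in the 3 TBP clones, and Col1a1 had 9 and 28 against 2, 0 and 1. Whether such reads came from the cultures or passed between libraries was not tested, and the fold changes given for these genes rest on them.

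Line-specific genes, chosen after their values were seen as those with at least 40 CPM in a line and at most 10 counts in each of the other 3, numbered 15 in T3-mes, 3 in T1-mes and none in the epi lines. Among those of T3-mes, Cxcl12, the chemokine SDF-1, had 3.62 and 71.7 CPM in the mes lines against 0 and 0 CPM in the epi lines. Dpt, the dermatopontin gene, had 0.453 and 49.5 CPM in the mes lines against 0 and 0.985 CPM in the epi lines, and Fbln5, the fibulin-5 gene, had 3.62 and 77.4 CPM in the mes lines against 0.473 and 1.48 CPM in the epi lines. Oxtr, the oxytocin receptor, had 0 and 69.2 CPM in the mes lines against 0 and 0.985 CPM in the epi lines, and Ednra, an endothelin receptor, had 3.17 and 44.7 CPM in the mes lines against 0 and 0 CPM in the epi lines. Trdn, the triadin gene of muscle, had 0 and 198 CPM in the mes lines against 2.37 and 4.92 CPM in the epi lines but also 140 counts in TBP clone 3, as Gata2 had 123. The others were Ptpn5, Popdc3, Cd302, Fscn1, Mmp16, Snai2, Capn6 and Spon1, at 42.3 to 101 CPM in T3-mes. T1-mes had Krt15, Mmp3, the stromelysin-1 gene, at 169 and 3.85 CPM in the mes lines against 0.946 and 0 CPM in the epi lines, and 2210407C18Rik. The chemokine gene Ccl2 was also highest in T1-mes, at 1417 and 130.3 CPM in the mes lines against 24.6 and 8.86 CPM in the epi lines, and was not called (5.53 ± 1.26, with an adjusted p of 0.119 in edgeR's test), while DESeq2 gave an adjusted p of 2.71e-07.

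In several lists edgeR called no gene. Of 38 proliferation genes tested none was called by edgeR or DESeq2 (4 were lower and none higher at an unadjusted p under 0.05 in edgeR), and the median log2 fold change was -0.40. Top2a, which untangles DNA at mitosis, had 691 and 329 CPM in the mes lines against 628 and 572 CPM in the epi lines, and Rrm2, which supplies deoxynucleotides, had 1231 and 686 CPM in the mes lines against 856 and 458 CPM in the epi lines. Of 24 p53 target genes tested edgeR called none (2 higher and 2 lower at an unadjusted p under 0.05) and DESeq2 1 lower, with a median of -0.31. Cdkn1a, the p21 gene, had 345 and 167 CPM in the mes lines against 194 and 763 CPM in the epi lines, with the highest level in T4-epi. The medians of the interferon-stimulated (26 tested), antigen presentation (11), chemokine and cytokine (20), hypoxia and glycolysis (28), immediate early (19), imprinted (5), ribosomal protein (47) and antimicrobial (13) lists were -0.20, 0.28, 0.30, -0.43, 0.51, -0.24, -0.10 and -1.02, with none called by edgeR, and those of mesothelial (5), smooth muscle (2) and muscle and fat (2) genes were -0.29, -0.09 and -0.79. At an unadjusted p under 0.05 edgeR put 8 chemokine and cytokine genes higher and 5 lower, 4 immediate early genes higher, and in each other list of these at most 3 in a direction. DESeq2 called Ccl2, Cxcl1 and Csf1 higher among the chemokines and cytokines, Jun among the immediate early genes and Car9 among those of hypoxia, and 2 antimicrobial genes higher and 1 lower, and it called none in the interferon-stimulated, antigen presentation, imprinted, ribosomal protein, mesothelial, smooth muscle, leukocyte and muscle and fat lists. Among the members of these lists, Jun, an AP-1 subunit, had 379 and 921 CPM in the mes lines against 68.6 and 61.1 CPM in the epi lines, with an adjusted p of 0.0582 in edgeR's test and 3.74e-07 in DESeq2. B2m, the light chain of MHC class I, had 355 and 758 CPM in the mes lines against 189 and 186 CPM in the epi lines. Lcn2, the siderophore-binding lipocalin-2, had 7539.9 and 676 CPM in the mes lines against 4798 and 5965 CPM in the epi lines, so that T3-mes was the low line.

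The TBP clones gave the level of the same genes in engineered organoids that had not been transplanted. In a fit of the 4 lines and the 3 clones with 10264 genes tested, edgeR called 325 genes higher (3.17%) and 107 lower (1.04%) in the mes organoids than in the clones, and none in either direction in the epi organoids (0%). At an unadjusted p under 0.05, 281 genes were higher and 203 lower in the epi organoids than in the clones, and DESeq2 called 13 and 9. Both comparisons share the clone libraries, and the difference between them was not tested apart from the comparison of mes with epi itself. Of the 98 genes higher in mes than in epi organoids, 28 had no count in any clone and 52 had at most 3 counts in each. Pdgfra had 5.54 and 0 CPM in TBP clones 2 and 3, Zeb1 0 and 0.456 CPM and Sparc 0.554 and 0 CPM. A smaller number of the 98 genes were also present in the clones, such as Timp2 at 89.2 and 208 CPM, Lgals1 at 50.4 and 305 CPM, Igfbp4 at 7.76 and 143 CPM and Slc48a1 at 47.7 and 54.9 CPM. Which of the 3 clone libraries, if any, is from the clone that gave the 4 lines was not given in the sources used here. Cdh1, Krt8 and Pax8 had 903 and 842, 957 and 995 and 120.2 and 139 CPM in TBP clones 2 and 3, levels of the same order as in T1-mes and the epi lines. Leaving out 1 library changed the calls in mes organoids to 183 higher and 45 lower without TBP clone 1, 244 and 62 without TBP clone 2, 203 and 100 without TBP clone 3, 240 and 34 without T3-mes, and 514 and 478 without T1-mes.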

How the data were processed

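Bulk RNA was measured by CEL-Seq2 (3′ reads). According to the study's methods and the submitters' processing notes, the authors aligned reads to GRCm38 with BWA, kept uniquely mapped reads and deposited raw read counts per gene. Copies made by amplification were not collapsed, so that intervals and limits from counts cover counting error only. The authors used DESeq2 1.18.0. The version of BWA was not given in the sources used here.

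The 4 tumor organoid libraries were tested with edgeR 4.0.16 (R 4.3.3), using the quasi-likelihood test, TMM normalisation, filterByExpr and Benjamini-Hochberg adjustment over the 9775 genes tested. Calls needed an adjusted p below 0.05 and an absolute log2 fold change above 2, and the standard error is the log2 fold change over the square root of F. CPM were computed on TMM-scaled sizes of 7 libraries, the 4 lines and the 3 TBP clones. A fold against a group at 0 in every library was computed against 3 counts per library, and a ratio with at most 3 counts per library in the lower group was given with an exact (Clopper-Pearson) 95% interval. The comparisons with the clones used 1 edgeR fit of these 7 libraries. DESeq2 1.42.0 was an alternative. The scripts were tested on simulated data with 200 changed genes. For mes against epi, edgeR made 167 calls, of which 12 were false, and DESeq2 made 180, of which 19 were false. Changes of 4-fold were recovered in 37.3% of cases by edgeR and in 46.3% by DESeq2. The replicates are separate tumor lines, and p-values measure the spread between them. For each gene the main test takes a single spread from both kinds of line together. The mes lines differed more from each other than the epi lines did (chi-square per gene 36.6 and 12.6).

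The members and gene lists were chosen with earlier results of these data known. Genes were named by rule: up to 5 called members a list and direction by smallest p, or else up to 3 members of highest mean, all members of the lists of EMT transcription factors, keratins and endothelial, leukocyte and smooth muscle markers, up to 15 called genes outside the lists in each direction, genes the study names for the comparison, the 10 with the largest ratio between the mes lines in each direction, and up to 5 non-overlapping genes not called with at least 100 CPM. Cell type markers, list extremes and genes named for their promoters or for a single line stand outside this rule. The markers were fixed with the lists, with earlier results of these data known, and the others were chosen after their values were seen. Promoters are from RefSeq (GRCm38.p6), and gene positions from GENCODE (GRCm38). The mitochondrial mRNAs were not analysed here. The value of 1 tested EMT transcription factor is not reported here.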

Additional observations from a re-analysis of the deposited data

How the results depend on the processing

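The counts of mes against epi organoids rest on 2 lines of each kind. All 110 called genes kept their direction under every alternative run. DESeq2 called 362 genes higher and 96 lower, no filter on low counts gave 236 and 47, a fit of all 27 libraries 426 and 44, and RLE size factors or a fold threshold of 1 stayed within 1.5 times of 98 and 12 for both counts. All 98 and 12 genes remained called with DESeq2, with RLE size factors, without the filter, with the replicate block and without T1-mes or T3-mes, and 90 and 6 of them with all 27 libraries. With T1-mes paired to T2-epi and T3-mes to T4-epi as a replicate block, 212 genes were called higher and 28 lower. The deviations from the group means correlated by 0.081 over 9775 genes, a single value by construction for 2 pairs. Leaving out 1 line gave 0 to 610 genes higher and 0 to 636 lower, with 0 wherever an epi line was left out.

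Of list members, 39 were called higher and 2 lower. The counts were 96 and 11 with DESeq2, 69 and 4 without the filter, 108 and 7 with all 27 libraries, 73 and 4 with the replicate block, and 0 to 118 and 0 to 91 with 1 line left out. For mes organoids against clones, no filter gave 553 higher and 376 lower, all 27 libraries 551 and 193, and DESeq2 185 lower. Leaving out 1 library gave 183 to 514 higher and 34 to 478 lower. For epi organoids against clones, DESeq2 called 13 and 9, no filter 54 and 37, and all 27 libraries 2 and 3.

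Among the genes named in the text that were not called, leaving out 1 line turned the sign of 13. Their log2 fold changes then ranged from -3.64 to 0.22 for Ap1m2, -3.66 to 0.45 for Clu, -3.97 to 0.12 for Krt18, -2.99 to 0.50 for Lcn2, -2.03 to 0.47 for Msln and -0.86 to 0.21 for Top2a, each highest without T3-mes. Krt20 ranged from -3.89 to 1.32, with 0.89 without T3-mes. The others ranged from -1.59 to 0.40 for Cdkn1a, -2.40 to 0.016 for Csf1r, -1.56 to 0.66 for Foxc1 (0.37 without T1-mes), -3.41 to 6.23 for Msx2 and -0.16 to 0.13 for Runx1 (-0.13 without T1-mes). Wt1 ranged from -7.35 without T1-mes to 1.65 without T3-mes and was -0.39 with the replicate block. Runx1 also turned with DESeq2 (-0.016) and RLE size factors (-0.011). The cause of these changes was not tested, apart from the fewer samples. At these depths a count of 0 allows 1.36 to 1.48 CPM, and lower levels could not be told from 0.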
